A study of Mus musculus with 24 samples.

Results

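Whole lungs of mice that had lost 3 let-7 microRNAs from their alveolar type 2 (AT2) cells were profiled early and late after the deletion, and the difference between the early and the late knockout effect is described here gene by gene. The libraries are all the whole-lung ones of the study, 14 of its 24, chosen by the kind of sample. Of these, 6 came from lungs taken after 6 days of tamoxifen (3 mice per genotype) and 8 from lungs taken after 6 months with booster tamoxifen (4 mice per genotype). Control mice carried Sftpc-CreER/+; R26-tdT/+, a Cre recombinase that tamoxifen switches on, expressed from the promoter of the AT2 gene for surfactant protein C, together with a tdTomato reporter. Knockout mice carried let7afd-/- beside these alleles, and both genotypes received tamoxifen, so exposure to tamoxifen and Cre is shared. The Sftpc promoter aims the deletion at AT2 cells, while a whole lung holds many other cell types. The labels name no age, sex or litter. Values are TPM, transcript abundances scaled to the same total in every library, which keep no read numbers, so the depth of a library and its counting error are unknown.

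AT2 cells make surfactant, the film of lipid and protein that keeps air sacs open, and they are the stem cells that renew the flat alveolar type 1 (AT1) cells. After injury they can pass through an intermediate state marked by keratin 8. The let-7 microRNAs pair through their seed, bases 2 to 8, with sites in messenger RNAs and lower the output of those messengers. They are known as brakes on growth and on fetal gene programmes. Alveolar macrophages clear surfactant, and macrophages that take up much lipid or debris express a known set of genes for lipid handling and lysosomes.

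The 3 deleted microRNAs are shown because they define the genotype. Their mature strands lie within 1 cluster on the minus strand of mouse chromosome 13 and share 1 seed, GAGGUAG, in capitals below. Sequences and positions are from RefSeq (GRCm38.p6), at chr13:48538239-48538260 for let-7a-5p, chr13:48537889-48537910 for let-7f-5p and chr13:48536078-48536099 for let-7d-5p.
let-7a-5p: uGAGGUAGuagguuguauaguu
let-7f-5p: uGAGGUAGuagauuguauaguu
let-7d-5p: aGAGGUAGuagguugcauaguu
Counted from 1 at the 5′ end of let-7a-5p, let-7f-5p differs by G12A, and let-7d-5p differs by U1A and U16C, all outside the seed.

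The libraries hold poly(A) RNA and do not measure mature microRNAs, so the targeted genes themselves give no check of the genotype. Zfp169, a zinc finger gene whose annotated end lies 22518 bases from the let-7d precursor, was named after its values were seen. In 6-day controls it stood at 2.08, 2.51 and 1.69 TPM and in 6-day knockouts at 6.05, 4.88 and 2.63 TPM. At 6 months it stood at 2.47, 2.44, 4.35 and 3.41 TPM in controls and at 7.37, 6.95, 8.10 and 4.70 TPM in knockouts. The genotypes did not overlap at either time. In AT2 cells sorted at 6 days, the cells in which the Cre is driven, it stood at 0.5703, 0.5528 and 0.6165 TPM in controls and at 13.01, 7.032 and 9.775 TPM in knockouts. In lung the effect on the log2(TPM + 1) scale was 0.79 at 6 days (adjusted p = 0.117) and 0.90 at 6 months (adjusted p = 0.00304), and its time difference was 0.11 with a 95% interval of -0.58 to 0.80.

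The 2 times differ in more than the time after deletion. Ddx3y, a gene of the Y chromosome, stood at 27.96 to 38.73 TPM in all 6 libraries of the early table and at 0 in all 8 of the late one. Xist, expressed from the inactive X chromosome, stood at 22.5 to 67.0 TPM in the late libraries and at no more than 0.0262 TPM in the early ones. The early lungs thus carried the transcripts of males and the late lungs those of females, in both genotypes. Time, sex, age and tamoxifen schedule cannot be told apart in any difference given below. As a marker of AT2 cells, Sftpc made up 1.02 to 3.37 percent of the transcripts in the early lungs and 1.46 to 2.01 percent in the late ones. Haemoglobin transcripts made up 0.876 to 8.45 percent of the early libraries and 0.529 to 1.35 percent of the late ones. The highest share was in 6-day knockout 3, and 6-day control 2 was the lowest of the early libraries. The same control 2 lay toward the knockouts for many macrophage genes, and 6-day knockout 3 had the lowest Col1a1 of all early lungs.

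The question of the comparison is which knockout effects grew, faded or turned between 6 days and 6 months. An effect is the mean of knockouts minus the mean of controls within 1 table, on the log2(TPM + 1) scale, which understates the change of low genes. The time difference is the effect at 6 months minus the effect at 6 days, tested with limma from both fits, and it is called at a Benjamini-Hochberg adjusted p under 0.05 over all 13873 genes tested at both times. A positive difference means that the knockout effect was more positive at 6 months. At 6 days 448 of 14152 genes were called higher in knockouts (3.17 percent) and 539 lower (3.81 percent). At 6 months 2259 of 14175 genes were called higher (15.9 percent) and 1966 lower (13.9 percent). The counts of each gene list below are to be read against these shares. The time difference was called more positive for 330 of 13873 genes (2.38 percent) and more negative for 49 (0.353 percent). At an unadjusted p under 0.05 the numbers were 1599 and 432.

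Most effects pointed the same way at both times. Of the 13873 genes, 351 were called higher at both times, 351 lower at both times and 11 in opposite directions. The 702 with shared direction were 74.8 percent of the early calls and 16.9 percent of the late calls among these genes. The median standard error of an effect was 0.21 at 6 days and 0.098 at 6 months, so the early table resolved less. It held 3 mice per genotype against 4, and its libraries also differed more from one another within a genotype. Across genes, which are not independent replicates, the 2 effects had a Pearson r of 0.66 and a Spearman rho of 0.62. Among the 330 genes with a more positive difference, 164 were called higher at 6 months only, 65 were called higher at both times, 58 were called lower at 6 days only, 28 were called lower at both times, 8 went from lower to higher and 7 were called at neither time. The 49 with a more negative difference comprised 22 called higher at 6 days only, 17 called lower at 6 months only, 3 that went from higher to lower, 2 called higher at both times and 5 called at neither.

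**Figure D1:**
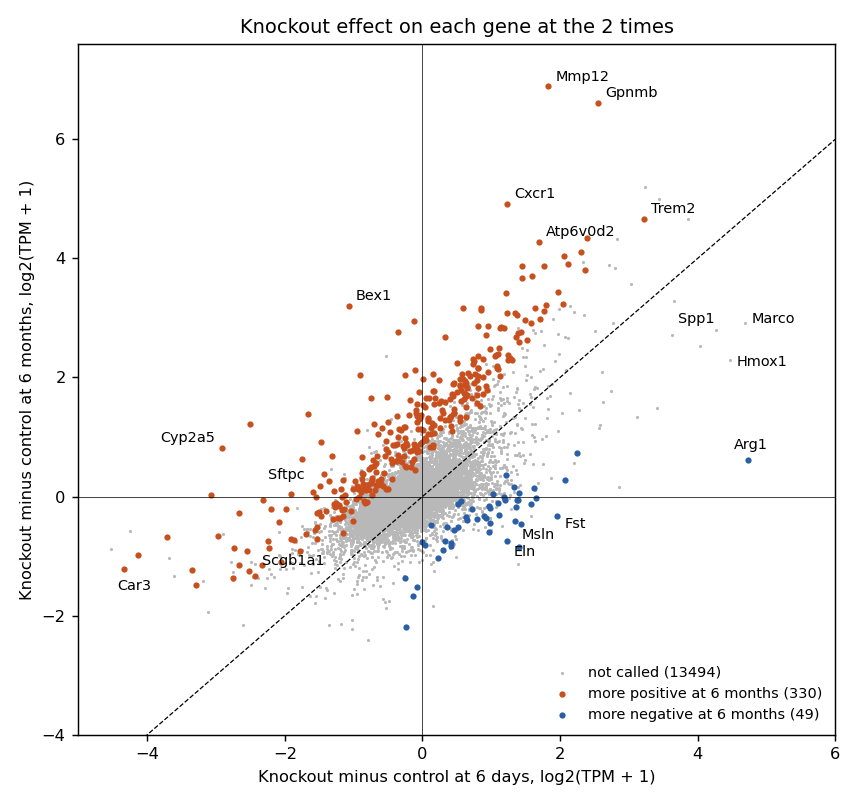
Each point is 1 of 13873 genes, with the knockout effect at 6 days on the horizontal axis and at 6 months on the vertical axis, both as log2(TPM + 1) differences, and the dashed line marks equal effects. Orange points (330) have a time difference called more positive and blue points (49) one called more negative, and Mmp12 and Gpnmb stand above all other genes at 6 months while Arg1 stands far to the right.

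The balance between the signs depended on scaling and on the early libraries. The median effect over these genes was -0.15 at 6 days and -0.0046 at 6 months, and the median time difference was 0.16. With median-ratio scaling that median was 0.02, and the share of called differences that were positive went from 87.1 to 69.7 percent, with 317 positive and 138 negative calls. Leaving out 6-day control 2 gave 171 and 53 calls, 6-day control 1 97 and 10, 6-day control 3 141 and 18, 6-day knockout 2 131 and 11, and 6-day knockout 3 601 and 288. In each of the 14 fits with 1 library left out, all 330 and all 49 genes kept their sign, but many calls did not last. The genes were chosen from these same libraries, so a kept sign is a weak test. Of 79 called genes followed singly, 43 lost the call without 6-day control 1, 35 without 6-day control 3, 35 without 6-day knockout 2, 20 without 6-day control 2 and 7 without 6-day knockout 1, and 20 lost it with median-ratio scaling. The call stood in all 14 such fits for 34 genes and under every alternative that gave a value for 26. Those 26 were Actc1, Arg1, Bex1, Cd68, Chil1, Ciart, Cxcr1, Cyp1a1, Cyp2a5, Etv5, Fbxo32, Fst, Gpnmb, Gsta3, Gzmb, Itih4, Lgi3, Mmp12, Msln, Myh6, Scd1, Slurp1, Syngr1, Tnfrsf12a, Vnn3 and Zfp967.

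Macrophage genes were among those whose effects grew most. Mmp12, macrophage elastase, stood at 20.5, 89.1 and 14.8 TPM in 6-day controls and 112, 113 and 106 TPM in 6-day knockouts. At 6 months it stood at 2.89, 2.41, 5.49 and 4.05 TPM in controls and at 779, 485, 399 and 559 TPM in knockouts. The genotypes were separate at both times, and 6-day control 2 came close to the knockouts. Its time difference was 5.06 ± 0.60 (SE, adjusted p = 0.0019), from an effect of 1.83 (not called) to one of 6.89 (called), and without 6-day control 2 it was 4.29. Gpnmb, a glycoprotein of lipid-laden macrophages, stood at 12.6, 36.3 and 12.7 TPM against 96.5, 111 and 129 TPM at 6 days. The late values were 10.7, 8.94, 11.3 and 13.5 TPM against 1736, 1162, 790 and 1172 TPM. The effects were 2.56 and then 6.61, both called, and the time difference was 4.05 ± 0.42 (adjusted p = 0.000326).

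Of the 20 tested genes of lipid-associated macrophages, 15 were called higher at 6 days and 18 at 6 months, none lower at either. For 14 the time difference was called more positive and for 1 more negative. Their median effect went from 1.24 to 2.15, and the median time difference was 1.05 against 0.16 over all genes. Without 6-day control 2 the calls were 10 and 1, without 6-day knockout 3 they were 16 and 2, and with median-ratio scaling they were 6 and 1. Summed over the list, controls stood at 5339 to 6078 TPM at 6 days and 4894 to 5087 TPM at 6 months, and knockouts at 12640 to 19080 and then 18610 to 24890 TPM. The mice of each group were separate animals, so the p-values measure spread between mice. In bulk tissue a change in the number of cells of a type and a change in RNA per cell cannot be told apart, here and in the groups below. Syngr1, a vesicle membrane protein, had a time difference of 2.32 ± 0.27 (adjusted p = 0.000771), and Fabp5, a fatty acid carrier, one of 1.68 ± 0.23 (adjusted p = 0.00222). Control AT2 cells sorted at 6 days also held these transcripts, at means of 48.4 TPM for Syngr1 and 1376 TPM for Fabp5. Neither had a called knockout effect there. The share of each cell type in their lung values was not tested. Trem2, a lipid receptor of macrophages, stood at 7.92, 15.7 and 6.78 against 85.0, 90.8 and 119 TPM at 6 days, and at 8.15, 6.44, 7.56 and 6.24 against 265, 210, 154 and 200 TPM at 6 months. Its effect was called higher at both times, with a time difference of 1.44 ± 0.32 (adjusted p = 0.0364), which was not called without 6-day control 2 (adjusted p = 0.0532) or with median-ratio scaling (adjusted p = 0.0904).

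Arg1, arginase 1, was the 1 gene of that list with a difference called more negative. It stood at 2.72, 6.84 and 4.43 TPM in early controls and 98.1, 91.4 and 321 TPM in early knockouts. The late controls stood at 2.21, 1.81, 3.42 and 2.30 TPM and the late knockouts at 3.31, 5.29, 6.53 and 2.46 TPM. The genotypes were far apart at 6 days and overlapped at 6 months. In control AT2 cells sorted at 6 days the mean of Arg1 was 15.0 TPM, and its knockout effect there was not called. The lung effect was 4.73 (adjusted p = 0.00429) and then 0.61 (adjusted p = 0.0787), a time difference of -4.12 ± 0.54 (adjusted p = 0.00196). It was called in all 14 fits with 1 library left out, where it ranged from -4.44 to -3.54.

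Several other genes called higher at both times had a smaller effect late that did not pass the test of the difference. Marco, a scavenger receptor, stood at 8.64, 43.2 and 5.51 TPM in early controls and 339, 314 and 444 TPM in early knockouts. In the late table it stood at 6.26, 7.74, 8.38 and 5.68 against 49.8, 84.1, 74.4 and 39.2 TPM. The genotypes were separate at both times, and the effects were 4.69 and 2.92, both called. The time difference of -1.77 ± 0.65 had an adjusted p of 0.233, and without 6-day control 2 it was -2.59 with an adjusted p of 0.000532. Hmox1, which breaks down haem, stood at 64.3, 293 and 49.2 against 1900, 1972 and 2758 TPM early and at 41.4, 30.9, 39.2 and 44.2 against 177, 198, 256 and 155 TPM late. Its time difference was -2.17 ± 0.60 (adjusted p = 0.109), and -2.96 (adjusted p = 0.0001005) without 6-day control 2. Spp1, osteopontin, is also on the list of lipid-associated macrophages. It stood at 136, 192 and 163 against 1833, 2734 and 6117 TPM early and at 210, 271, 231 and 188 against 2231, 1516, 1225 and 1380 TPM late. Its time difference was -1.47 ± 0.42 (adjusted p = 0.105), and -0.99 (adjusted p = 0.0344) without 6-day knockout 3, the library with the highest value.

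Of 20 alveolar macrophage genes tested, 9 were called higher and 4 lower at 6 days, 15 higher and 4 lower at 6 months. Differences were called more positive for 9 and more negative for none, 5 and 1 without 6-day control 2, and 2 and none with median-ratio scaling. The median effect went from 0.59 to 1.76. Atp6v0d2, a macrophage subunit of the proton pump of lysosomes, stood at 32.2, 30.6 and 27.9 against 98.8, 62.0 and 161 TPM at 6 days and at 16.8, 12.6, 19.6 and 16.7 against 372, 384, 290 and 298 TPM at 6 months. That gave a time difference of 2.59 ± 0.33 (adjusted p = 0.00222). Pparg, the transcription factor that alveolar macrophages and fat cells need, stood at 16.9, 14.7 and 18.5 against 15.0, 13.6 and 21.5 TPM at 6 days, where the genotypes overlapped. At 6 months it stood at 11.6, 8.58, 13.3 and 11.1 against 25.3, 32.7, 36.4 and 27.5 TPM, with no overlap. Pparg had a time difference of 1.40 ± 0.25 (adjusted p = 0.0065), and Abcg1, a cholesterol exporter, one of 1.35 ± 0.26 (adjusted p = 0.0206). Plet1, a surface protein of alveolar macrophages and some epithelium, was called higher at both times with a time difference of 0.94 ± 0.22 (adjusted p = 0.0272). With median-ratio scaling the adjusted p was 0.0512 for Pparg and 0.163 for Plet1, and without 6-day control 2 it was 0.0704 for Abcg1 and 0.0776 for Plet1, so these calls were lost.

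All 31 lysosome genes tested were called higher at 6 months and 19 at 6 days, and all 31 had a positive time difference, called for 13. The median effect went from 0.69 to 1.40. With median-ratio scaling 11 were called, and without 6-day control 2 8 were called. Cd68, a lysosomal membrane protein of macrophages, stood at 96.9, 154 and 86.9 against 408, 324 and 397 TPM early and at 50.4, 44.0, 55.7 and 52.3 against 856, 784, 686 and 708 TPM late. Cd68 had a difference of 2.11 ± 0.24 (adjusted p = 0.00163). The protease genes Ctss and Ctsl had differences of 1.36 ± 0.18 (adjusted p = 0.00232) and 1.05 ± 0.17 (adjusted p = 0.00237). Ctsd, the aspartic protease of lysosomes, stood at 677, 821 and 659 against 2953, 2460 and 3535 TPM early and at 624, 579, 618 and 629 against 6382, 6198, 5242 and 5266 TPM late, with a difference of 1.19 ± 0.18 (adjusted p = 0.00517). With median-ratio scaling Ctsd and Ctsl were not called (adjusted p of 0.0862 and 0.0564).

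Because all 31 were called higher late, their promoters were searched for TCACGTGA, an 8-letter form of the element that the lysosomal regulator TFEB is known to bind. The search covered the RefSeq windows from 250 bases before to 50 after each annotated start (GRCm38.p6), and the motif reads the same on both strands. Of 31 lysosome genes 24 had a window, and 5 of them held the motif (20.8 percent), against 228 of 10863 tested genes with a window (2.10 percent). Among genes with a more positive time difference 6 of 244 held it (2.46 percent), and among those with a more negative one 0 of 35. The first share is near that of all genes. A match describes these letters only. The share in the lysosome list follows from which genes were listed and would be the same without any knockout effect. It is no test of TFEB in these lungs. Windows of 30 bases around it, in capitals, are shown for 3 genes of the list. They lie at chr7:142387908-142387937 on the minus strand for Ctsd, chr2:164833749-164833778 on the plus strand for Ctsa and chr8:3500462-3500491 on the plus strand for Mcoln1.
Ctsd: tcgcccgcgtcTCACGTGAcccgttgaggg
Ctsa: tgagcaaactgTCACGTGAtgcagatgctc
Mcoln1: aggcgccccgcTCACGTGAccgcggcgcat
Ctsa, a carboxypeptidase that also shields other lysosomal enzymes, had a time difference of 0.78 ± 0.16 (adjusted p = 0.0242, and 0.1004 without 6-day control 2). Mcoln1, the calcium channel of lysosomes, was called higher at 6 months only, and its difference of 0.42 had a 95% interval of -0.07 to 0.90. Ctsa and Mcoln1 were named for their promoters after their values were seen.

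Sftpc, surfactant protein C and the gene whose promoter drives the Cre, stood at 33719, 28797 and 31737 TPM in early controls and 10154, 10404 and 13236 TPM in early knockouts. The late values were 16029, 14631, 15660 and 15583 TPM in controls and 17725, 20086, 17013 and 15682 TPM in knockouts. The genotypes were separate at 6 days and overlapped at 6 months. The effect was -1.49 (adjusted p = 0.00381) and then 0.18 (adjusted p = 0.105), a time difference of 1.67 ± 0.16 (adjusted p = 0.000222) that was called in all 14 fits with 1 library left out but not with median-ratio scaling (adjusted p = 0.0781). Lgi3, a secreted protein enriched in AT2 cells, stood at 133, 98.9 and 128 against 54.6, 48.2 and 42.1 TPM early and at 77.9, 71.6, 88.4 and 79.5 against 96.7, 91.1, 79.9 and 71.3 TPM late. Its time difference was 1.38 ± 0.20 (adjusted p = 0.00222). Lamp3, a protein of the lamellar bodies that store surfactant, stood at 420, 395 and 423 against 244, 298 and 341 TPM early. Late values of 242, 237, 248 and 245 against 436, 432, 419 and 360 TPM lay the other way, with no overlap at either time. Its difference was 1.25 ± 0.16 (adjusted p = 0.00226, and 0.053 with median-ratio scaling).

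Over the 23 AT2 and surfactant genes, 1 was called higher and 4 lower at 6 days, and 12 higher and 2 lower at 6 months. A more positive time difference was called for 9 and a more negative one for 1, and it was positive in sign for 22. The median effect went from -0.20 to 0.30. With median-ratio scaling 4 were called more positive, and without 6-day control 2 8 were. Acoxl, an acyl-CoA oxidase-like gene, was called lower at both times, with an effect of -1.51 early and -0.26 late. The exception was Chia1, a chitinase that AT2 cells secrete, with an effect of 0.23 early and -1.02 late (time difference -1.26 ± 0.27, adjusted p = 0.0186). Its call was lost without 6-day control 2 (adjusted p = 0.0737) and with median-ratio scaling (adjusted p = 0.0512). It was named after its value was seen. In AT2 cells sorted at 6 days, the secondary readout, the knockout effect on Sftpc was -0.46 with an adjusted p of 0.715, and those libraries are pools of 3 mice.

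**Figure D2:**
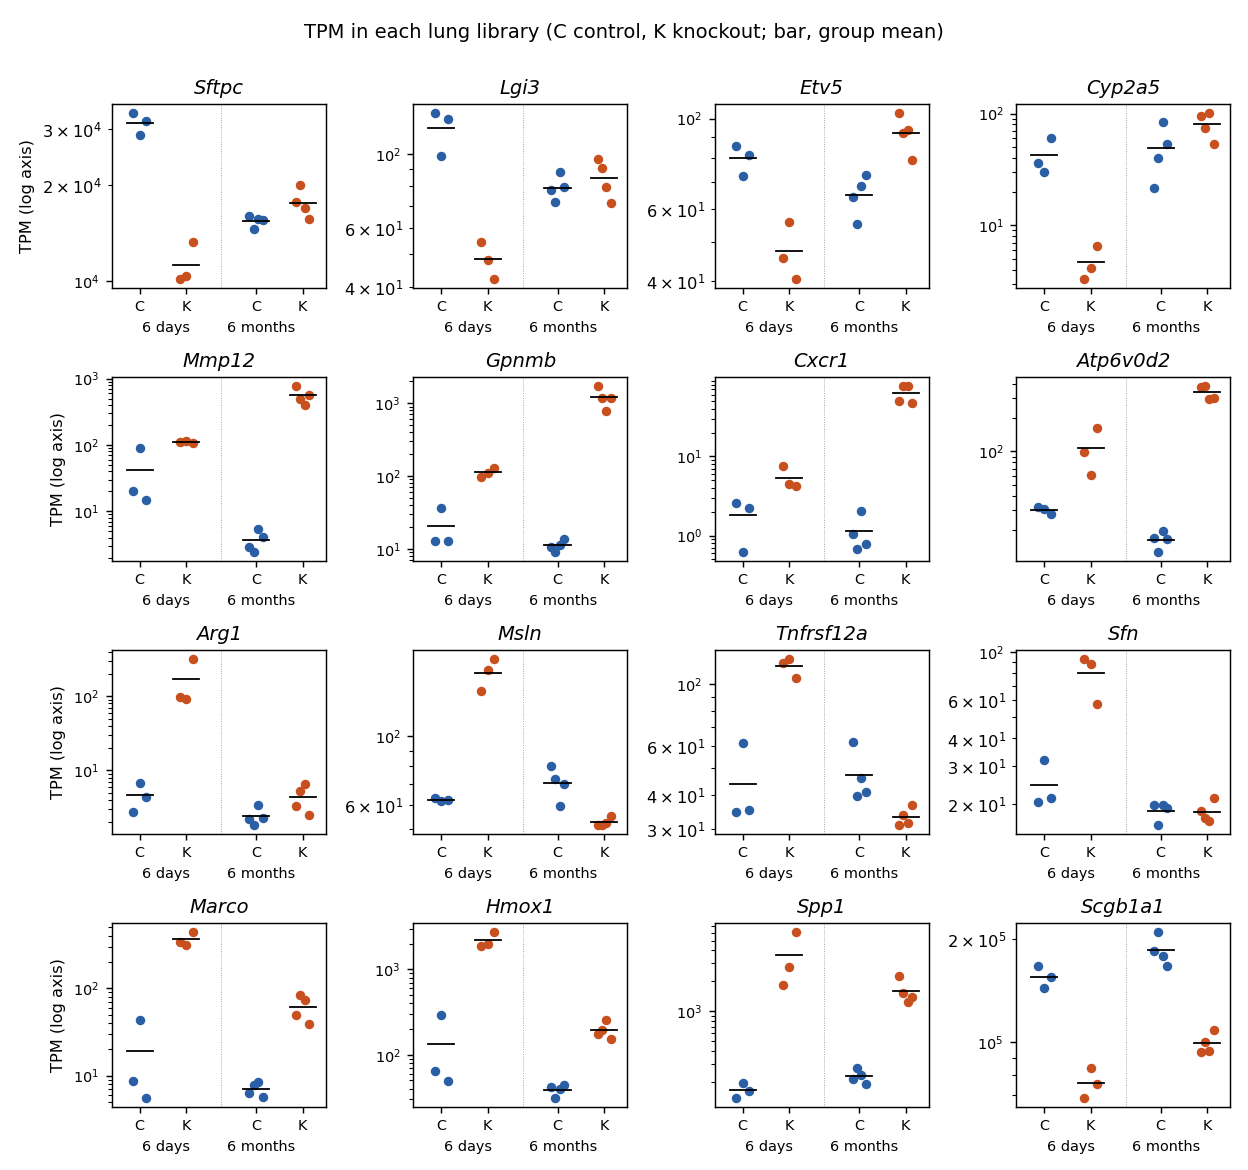
TPM of 16 genes in each of the 14 lung libraries on log axes, with controls (C, blue) and knockouts (K, orange) at 6 days left of the dotted line and at 6 months right of it, points for libraries and bars for group means. Sftpc knockouts lie below controls at 6 days and overlap them at 6 months. Mmp12 and Gpnmb knockouts lie farther above their controls at 6 months than at 6 days. Arg1, Msln, Tnfrsf12a and Sfn knockouts are raised at 6 days only.

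Of 30 genes of the keratin 8 state tested, 10 were called higher and none lower at 6 days, and 10 higher and 2 lower at 6 months. The time difference was more negative for 6 and more positive for 1, and the median effect went from 0.81 to 0.13. Without 6-day knockout 3 the calls were 11 more negative and 1 more positive, and with median-ratio scaling 10 and none. Sfn, stratifin, stood at 20.4, 32.0 and 21.3 against 92.9, 88.1 and 57.6 TPM early and at 19.7, 15.99, 19.7 and 19.2 against 18.5, 17.4, 16.7 and 21.2 TPM late. The early separation was absent late, and the difference was -1.67 ± 0.26 (adjusted p = 0.00678). Krt7, a keratin of simple epithelium, had an effect of 1.36 early and -0.18 late (difference -1.53 ± 0.30, adjusted p = 0.0304), and S100a6, a calcium-binding protein, 1.33 and then 0.16 (difference -1.17 ± 0.23, adjusted p = 0.0281). Cdkn2b, an inhibitor of cell division, was not called at either time but its difference was (-0.97 ± 0.21, adjusted p = 0.0235).

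The member with a difference called more positive was Lgals3, galectin 3, which macrophages also express. Its time difference was 1.27 ± 0.25 (adjusted p = 0.0272, and 0.101 with median-ratio scaling). S100a6 was also not called with that scaling (adjusted p = 0.051). Krt8 itself stood at 145, 188 and 169 against 279, 319 and 210 TPM early and at 202, 185, 202 and 179 against 177, 182, 178 and 175 TPM late. The early genotypes did not overlap, and the difference of -0.78 ± 0.19 had an adjusted p of 0.0733. It was called with 6 of the 25 alternative settings.

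Of 22 AT1 markers tested, 2 were called higher and none lower at 6 days, and 2 higher and 7 lower at 6 months, with Krt7 the 1 called difference. The late shares over all genes were 15.9 percent higher and 13.9 percent lower. Hopx, a homeodomain protein of AT1 cells, stood at 768, 982 and 795 against 734, 906 and 762 TPM early, fully overlapping. At 6 months it stood at 1440, 1180, 1214 and 1256 against 742, 700, 709 and 905 TPM, with no overlap and a called effect of -0.74. The time difference of -0.66 ± 0.17 had an adjusted p of 0.0607 and was called with 6 alternative settings. Pdpn, podoplanin, was called higher at both times (effects of 1.23 and 0.44), with a difference of -0.79 ± 0.20 (adjusted p = 0.0731).

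Among the 16 genes named for the size of their time difference, several stand outside the lists above. Bex1, a small adaptor protein, stood at 5.02, 3.09 and 5.74 against 0.42, 2.28 and 2.83 TPM early and at 2.52, 4.38, 2.85 and 2.92 against 54.3, 30.1, 27.4 and 40.0 TPM late. Its time difference was 4.27 ± 0.43 (adjusted p = 0.000305). Cxcr1, a chemokine receptor, stood at 2.58, 0.616 and 2.24 against 7.48, 4.43 and 4.26 TPM early and at 1.04, 0.68, 2.05 and 0.777 against 49.7, 77.9, 76.7 and 47.3 TPM late, a difference of 3.68 ± 0.40 (adjusted p = 0.000265). Both were called with every alternative that gave them a value. Zfp967, a zinc finger gene, was listed at 0 in all 3 early knockouts and in 2 late controls. Such zinc finger genes have close copies, and how the authors shared reads among copies is not given, so its difference of 3.73 is uncertain.

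Among the differences called more negative, Fst, follistatin, an antagonist of activins, stood at 2.70, 6.43 and 3.14 against 20.9, 18.9 and 14.4 TPM early and at 3.01, 5.59, 5.59 and 3.76 against 2.89, 3.66, 3.91 and 2.70 TPM late. Its difference was -2.29 ± 0.34 (adjusted p = 0.00222). Slurp1, a small secreted protein of epithelium, stood at 12.3, 13.3 and 11.9 against 29.7, 28.9 and 48.8 TPM early and at 27.3, 20.2, 25.5 and 19.6 against 15.9, 21.6, 5.72 and 11.3 TPM late, a difference of -2.25 ± 0.37 (adjusted p = 0.00222). Its knockouts lay above the controls early, and most lay below them late. Tmem213, a transmembrane protein, had an effect of 2.07 early and 0.29 late (difference -1.78 ± 0.38, adjusted p = 0.015). Ptx3, a pentraxin of innate immunity, had 1.58 and then -0.12 (difference -1.70 ± 0.36, adjusted p = 0.0239).

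**Figure D3:**
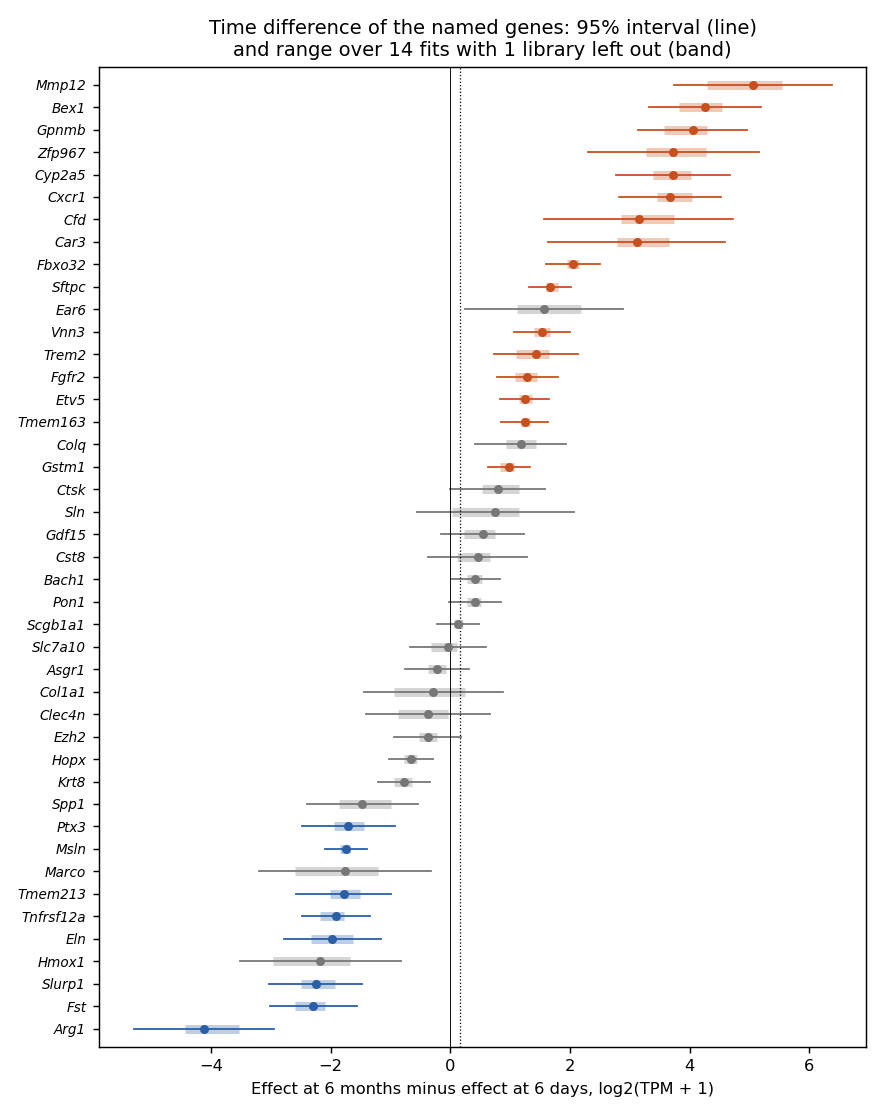
Time difference of the genes named by rule over all genes, on the horizontal axis as log2(TPM + 1), with the point for the estimate, the line for its 95% interval, the band for the range over 14 fits with 1 library left out, and the dotted line at the median of all genes (0.16). Orange and blue genes are called and grey genes are not, with Mmp12 at 5.06 and Arg1 at -4.12 at the ends.

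Of the 11 genes called in opposite directions at the 2 times, 8 went from lower to higher and 3 from higher to lower. Msln, mesothelin, a surface protein of the lung lining that some epithelium also expresses, stood at 63.3, 61.8 and 62.4 against 140, 164 and 178 TPM early and at 80.1, 72.7, 59.5 and 70.1 against 51.6, 51.6, 52.6 and 55.4 TPM late. There was no overlap at either time, and the difference of -1.75 ± 0.16 (adjusted p = 0.000156) was called with all 25 alternatives. Tnfrsf12a, the receptor of the cytokine TWEAK, stood at 34.7, 61.5 and 35.1 against 119, 124 and 106 TPM early and at 62.0, 39.5, 45.9 and 40.8 against 31.0, 33.8, 31.7 and 36.6 TPM late. Its difference was -1.91 ± 0.26 (adjusted p = 0.00206). Etv5, a transcription factor that maintains AT2 identity, stood at 85.8, 72.4 and 81.5 against 45.7, 55.9 and 40.5 TPM early and at 64.3, 55.2, 68.3 and 72.9 against 103, 92.3, 93.5 and 79.3 TPM late, with no overlap at either time. Fgfr2, a fibroblast growth factor receptor of lung epithelium, was called in the same directions.

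The differences were 1.25 ± 0.19 for Etv5 (adjusted p = 0.00291) and 1.28 ± 0.23 for Fgfr2 (adjusted p = 0.015). Fbxo32, a ubiquitin ligase subunit first known from wasting muscle, stood at 6.92, 7.28 and 6.85 against 3.68, 3.17 and 2.68 TPM early and at 7.85, 6.62, 7.52 and 7.87 against 21.5, 17.2, 16.9 and 13.9 TPM late, a difference of 2.05 ± 0.21 (adjusted p = 0.000197). Vnn3, a pantetheinase, had an effect of -0.88 early and 0.66 late, Tmem163, a zinc transporter, -0.87 and 0.38, and Gstm1, a glutathione transferase, -0.75 and 0.22. All 3 of their differences were called. The number of opposite calls depends on the early libraries and was 4 without 6-day control 2.

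Scgb1a1, the main secreted protein of club cells, stood at 166350, 143530 and 154910 against 68360, 83818 and 75209 TPM early and at 185170, 210300, 178790 and 167260 against 93506, 100080, 94129 and 108460 TPM late. Effects of -1.03 and -0.90 were both called, and the time difference of 0.13 had a 95% interval of -0.22 to 0.48. Its sign turned with median-ratio scaling. Of 18 club cell genes 10 were called lower at 6 days and 12 at 6 months, none higher. For 3 the difference was called more positive, among them Cyp2f2, a cytochrome P450, with effects of -2.05 and -1.10, Cbr2, a carbonyl reductase, with -1.53 and -0.51, and Sult1d1, a sulfotransferase, with -2.67 and -1.15. With median-ratio scaling none of the 3 was called, and without 6-day control 2 only Cbr2 was. Of 19 ciliated cell genes 10 were called lower at 6 days and 16 at 6 months, none higher, and no difference was called (median 0.31 against 0.16 over all genes).

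Of 24 airway enzymes that act on foreign compounds, 15 were called lower and 1 higher at 6 days and 14 lower and 3 higher at 6 months. The difference was more positive for 9 and more negative for none, and positive in sign for 23. The median effect went from -1.14 to -0.38, with 5 differences called without 6-day control 2 and 6 with median-ratio scaling. Cyp2a5, a cytochrome P450 of airway epithelium, stood at 36.2, 29.8 and 60.4 against 3.30, 4.16 and 6.53 TPM early and at 21.6, 40.2, 83.4 and 53.3 against 95.8, 74.2, 102 and 53.5 TPM late. The genotypes were separate early and overlapped late, and the difference was 3.72 ± 0.45 (adjusted p = 0.000222). Cyp1a1, the enzyme induced through the aryl hydrocarbon receptor, stood at 25.998, 9.55 and 14.4 against 7.44, 2.45 and 3.80 TPM early and at 2.68, 2.96, 2.56 and 4.27 against 5.58, 16.3, 8.02 and 11.3 TPM late, a difference of 3.04 ± 0.49 (adjusted p = 0.00358). Gsta3, a glutathione transferase, had an effect of -1.27 early and -0.17 late (difference 1.10 ± 0.16, adjusted p = 0.00222).

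Matrix and stromal genes gave few called differences. Of 25 collagens none was called at 6 days, 5 were called higher and 8 lower at 6 months, and no difference was called. Over all genes 15.9 percent were called higher and 13.9 percent lower at 6 months. Col1a1, a chain of type I collagen, stood at 181, 199 and 195 against 492, 285 and 93.3 TPM early, where 6-day knockout 3 was the lowest of all and the other knockouts were the highest. At 6 months it stood at 111, 94.1, 108 and 109 against 99.4, 108, 121 and 99.7 TPM. The difference of -0.28 had a 95% interval of -1.45 to 0.88, too wide to place the early effect, and it was 0.25 without 6-day knockout 1 and -0.95 (adjusted p = 0.0384) without 6-day knockout 3. Eln, elastin, stood at 239, 386 and 258 against 1086, 681 and 414 TPM early and at 80.2, 78.5, 110 and 76.5 against 45.2, 47.8, 72.0 and 41.6 TPM late. It was higher in every early knockout and lower in every late one, with a difference of -1.97 ± 0.37 (adjusted p = 0.0156).

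Lox, which cross-links elastin and collagen, had an effect of 1.20 early and -0.06 late (difference -1.27 ± 0.30, adjusted p = 0.0405), and Dcn, the matrix proteoglycan decorin, -1.48 and -0.32 (difference 1.16 ± 0.27, adjusted p = 0.0371). Neither kept its call in every fit with 1 library left out, where each was called in 8 of 14. Of 17 alveolar fibroblast genes 4 were called lower at 6 days and 15 at 6 months, none higher. Inmt, a methyltransferase of lung fibroblasts, had effects of -1.54 and -0.71 (difference 0.82 ± 0.15, adjusted p = 0.0081), and Ces1d, a carboxylesterase, of -1.01 and -0.41 (difference 0.60 ± 0.13, adjusted p = 0.0365). Neither was called with median-ratio scaling, nor Ces1d without 6-day control 2. Smooth muscle and pericyte genes were called lower for 4 of 18 at 6 days and 14 at 6 months, with 1 called difference. Endothelial genes were called lower for 1 of 25 at 6 days and 18 at 6 months. They were called higher for 1 and 2, with 0 called differences. Of 9 mesothelial genes 1 was called lower at 6 days and 8 at 6 months, and Msln was the 1 called difference.

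**Figure D4:**
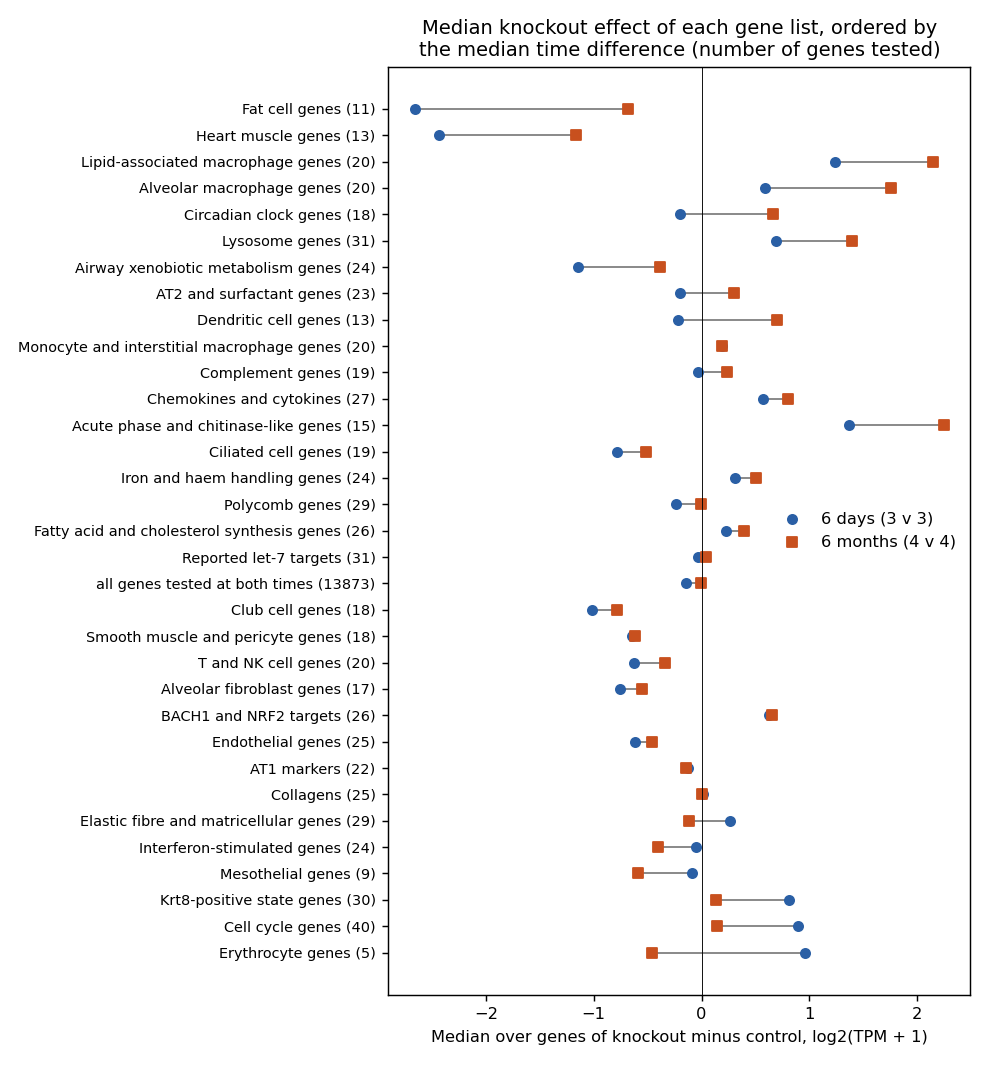
Median knockout effect of 32 gene lists and of all 13873 genes at 6 days (blue circles, 3 against 3 mice) and 6 months (orange squares, 4 against 4), on the horizontal axis as log2(TPM + 1), ordered by the median time difference with the number of tested genes in brackets. Fat cell genes lie at the top and the keratin 8 state, cell cycle and erythrocyte genes at the bottom, where the order of the 2 times is reversed.

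Of 13 dendritic cell genes none was called at 6 days, 8 were called higher and 2 lower at 6 months, and 4 differences were more positive. Those were Clec9a, Xcr1 and Itgae, surface proteins of the cross-presenting dendritic cells, and Cd83, a marker of maturation. Xcr1 stood at 2.16, 3.38 and 3.41 against 3.73, 1.70 and 1.83 TPM early and at 1.90, 2.89, 1.77 and 3.53 against 6.35, 6.71, 7.34 and 6.71 TPM late (difference 1.42 ± 0.31, adjusted p = 0.0266). The differences were 1.25 for Clec9a, 1.33 for Itgae and 1.08 for Cd83. Without 6-day control 2 none of the 4 was called.

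Of 20 T and NK cell genes tested 0 were called higher and 2 lower at 6 days, and 3 higher and 7 lower at 6 months. The list's median effect was -0.62 early and -0.34 late. Differences were called more positive for 2 and more negative for 1. Gzma and Nkg7, genes of killer cells, were called lower at both times. Il7r, the interleukin 7 receptor, stood at 8.69, 12.4 and 11.8 against 17.1, 9.85 and 8.40 TPM early and at 12.2, 11.6, 13.7 and 18.6 against 62.4, 45.3, 34.0 and 44.1 TPM late (difference 1.60 ± 0.32, adjusted p = 0.0151). Gzmb, a granzyme of killer cells, stood at 13.4, 10.3 and 12.6 against 13.01, 8.91 and 11.01 TPM early and at 8.29, 14.5, 11.6 and 9.61 against 3.81, 1.97, 3.12 and 2.15 TPM late, a difference of -1.54 ± 0.27 (adjusted p = 0.00365) called with all 25 alternatives. Cd4, the helper T cell co-receptor that macrophages can also express, had a difference of 1.92 ± 0.45 (adjusted p = 0.0283), and its late genotypes overlapped in 1 control at 15.01 TPM. Without 6-day control 2 neither Il7r nor Cd4 was called (adjusted p of 0.0833 and 0.0884). Interferon-stimulated genes, 24 tested, had none called at 6 days and 10 lower and 1 higher at 6 months. For 1 of them the difference was called more negative. Chemokines and cytokines, 27 tested, had 7 called higher at 6 days, and 17 higher and 2 lower at 6 months. There 1 difference was called more positive, and none with median-ratio scaling. Without 6-day control 2 the calls were 0 more positive and 2 more negative.

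Acute phase and chitinase-like genes had time differences of both signs. Of 15 tested, 6 were called higher at 6 days and 11 at 6 months, with 5 differences more positive and 1, Chia1, more negative, and 8 of 15 positive in sign. Summed over the list, controls stood at 4687 to 7465 TPM early and 3237 to 3768 TPM late, and knockouts at 16160 to 30770 and 11830 to 16940 TPM. Chil1, a chitinase-like protein of epithelium and macrophages, stood at 979, 1108 and 888 against 1437, 1363 and 1256 TPM early and at 773, 771, 813 and 774 against 2734, 3342, 2787 and 2756 TPM late (difference 1.43 ± 0.15, adjusted p = 0.000326). Orm1, a plasma acute phase protein, stood at 6.99, 6.55 and 5.37 against 11.8, 17.7 and 31.9 TPM early and at 1.26, 2.69, 4.14 and 0.754 against 35.5, 40.7, 34.5 and 35.4 TPM late (difference 2.21 ± 0.42, adjusted p = 0.00712). Orm2, its close copy, had a difference of 1.74 and Itih4, an inter-alpha-trypsin inhibitor heavy chain, one of 1.75. Reads that fit both Orm1 and Orm2 may have been split between them, so their separate values are uncertain.

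Of 24 genes for iron and haem handling 9 were called higher and 2 lower at 6 days, and 15 higher and 1 lower at 6 months. The 2 called differences were both more positive. Lcn2, lipocalin 2, which binds bacterial iron carriers, had a difference of 1.47 ± 0.31 (adjusted p = 0.0275) and Slc11a1, a metal transporter of phagosomes, one of 1.54 ± 0.31 (adjusted p = 0.0313). Lcn2 was not called with median-ratio scaling (adjusted p = 0.0564). Targets of the haem-sensing repressor BACH1 and its rival NRF2 numbered 26, with 13 called higher at 6 days and 20 at 6 months. Another 3 were called lower at 6 days and 1 at 6 months. The 2 differences called more positive were those of Gsta3 and Gstm1, both called lower at 6 days. The list's median difference was 0.12 against 0.16 over all genes. Bach1, itself a reported let-7 target, stood at 26.8, 29.0 and 27.0 against 28.7, 25.6 and 20.3 TPM early and at 24.3, 26.3, 29.5 and 28.8 against 33.2, 33.0, 34.2 and 30.4 TPM late. Its effect was called only at 6 months (0.26), and the difference of 0.42 had a 95% interval of 0.01 to 0.83 and an adjusted p of 0.336. Of 19 complement genes 4 were called higher and 1 lower at 6 days, and 10 higher and 1 lower at 6 months. C3ar1, the receptor of a complement fragment, had a difference of 1.11 ± 0.26 (adjusted p = 0.0266, and 0.0932 without 6-day control 2).

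Of 26 genes for fatty acid and cholesterol synthesis 5 were called higher at 6 days and 19 at 6 months, none lower. Scd1, a fatty acid desaturase, stood at 1617, 1333 and 2205 against 1756, 1816 and 1239 TPM early and at 655, 409, 650 and 418 against 1301, 1502, 1302 and 1378 TPM late. The genotypes overlapped early and not late, and the difference was 1.48 ± 0.27 (adjusted p = 0.0065). Fasn, fatty acid synthase, had a difference of 1.34 ± 0.24 (adjusted p = 0.0172) and Acly, ATP citrate lyase, one of 0.87 ± 0.18 (adjusted p = 0.0363, and 0.0789 without 6-day control 2). Of 18 circadian clock genes 1 was called higher and 2 lower at 6 days, and 11 higher and 2 lower at 6 months. Ciart, a repressor of the clock, had a difference of 1.80 ± 0.35 (adjusted p = 0.00712) and Hlf, a clock output factor, one of 1.34 ± 0.27 (adjusted p = 0.0266). Hlf was not called without 6-day control 2 (adjusted p = 0.1004). The labels name no time of day for the collection.

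Genes of fat and heart muscle, tissues that can be taken along with a lung, showed large differences. Of 11 fat cell genes 9 were called lower and 1 higher at 6 days and 2 lower and 2 higher at 6 months, and 9 differences were more positive (6 with median-ratio scaling). The median effect went from -2.66 to -0.68. Cfd, the fat cell protease adipsin, stood at 232, 80.7 and 256 against 5.90, 5.55 and 18.8 TPM early and at 17.4, 22.5, 57.0 and 38.0 against 22.8, 27.7, 19.1 and 3.62 TPM late (difference 3.15 ± 0.75, adjusted p = 0.0285, and 0.0572 with median-ratio scaling). Car3, a carbonic anhydrase of fat and muscle, stood at 105, 36.1 and 114 against 2.40, 1.43 and 5.71 TPM early and at 16.6, 31.7, 59.5 and 28.7 against 25.7, 19.7, 13.3 and 3.54 TPM late (difference 3.12 ± 0.71, adjusted p = 0.0212). Retn, Pck1 and Plin1, also of fat cells, had differences of 3.03, 2.38 and 2.31, all called. Lpl and Fabp4 of this list are macrophage genes too, and both were called higher at 6 months.

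All 13 heart muscle genes tested were called lower at 6 days and 12 at 6 months, and 3 differences were more positive. Myh6, the cardiac myosin heavy chain, stood at 120, 93.2 and 87.9 against 6.98, 12.7 and 8.80 TPM early and at 123, 57.2, 71.9 and 99.4 against 43.1, 24.5, 27.6 and 26.1 TPM late (difference 1.82 ± 0.32, adjusted p = 0.00358). Actc1, cardiac actin, had effects of -2.53 and -1.25 and Myl3, a myosin light chain, of -2.74 and -0.86. Myl3 was not called without 6-day control 2 (adjusted p = 0.071) or with median-ratio scaling (adjusted p = 0.089). Summed over the list, controls stood at 1181 to 1839 TPM early and 635.9 to 1392 TPM late, and knockouts at 155.3 to 330.8 and 321.8 to 479.2 TPM. Pulmonary veins of mice hold heart muscle cells too. How much of these genes' effects came with tissue taken along was not tested. Erythrocyte genes, 5 tested, had a median effect of 0.96 early and -0.46 late with no called difference, and their sum ran from 8789 to 84830 TPM over the early libraries.

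**Figure D5:**
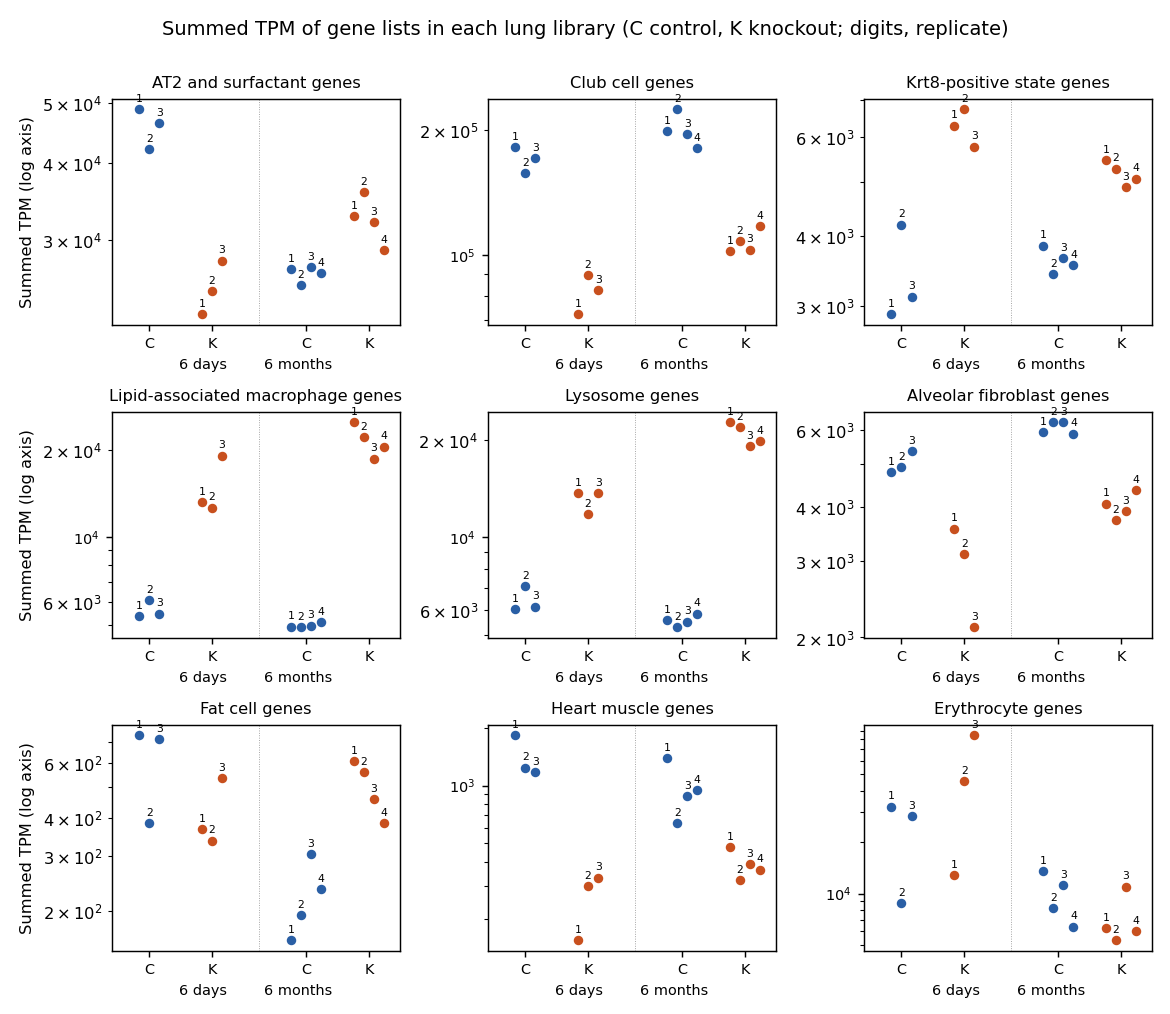
Summed TPM of 9 gene lists in each lung library on log axes, with controls (C, blue) and knockouts (K, orange) at 6 days left of the dotted line and at 6 months right of it, and the replicate number beside each point. Lipid-associated macrophage and lysosome sums are separate between genotypes at both times, AT2 sums reverse their order, and the erythrocyte sum is highest in 6-day knockout 3.

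Of 31 reported let-7 targets tested none was called at 6 days, 6 were called higher and 3 lower at 6 months, no difference was called, and the median time difference was 0.19, near the 0.16 of all genes. Over all genes 15.9 percent were called higher and 13.9 percent lower at 6 months. The 8-letter let-7 site CTACCTCA, the complement of the seed followed by A, was present in the longest annotated 3′ UTR (GENCODE M21) of 481 of 13228 tested genes (3.64 percent). It was present in 11 of 319 genes with a more positive difference (3.45 percent) and 1 of 47 with a more negative one (2.13 percent). The median effect of the 481 genes was -0.15 at 6 days and -0.00068 at 6 months, and that of the 12747 genes without the site was -0.15 and -0.0035. Among those also tested in AT2 cells sorted at 6 days, the median effect there was 0.11 with the site and 0.081 without it. Of the genes called higher in these AT2 cells, 31 of 720 held the site (4.31 percent). Whether these AT2 values differ was not tested.

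Of 29 Polycomb genes 1 was called lower at each time. Ezh2, the methyltransferase of Polycomb complex 2, stood at 10.9, 12.3 and 8.28 against 14.8, 18.3 and 12.03 TPM early and at 5.29, 5.82, 7.00 and 8.16 against 6.72, 5.65, 7.34 and 8.73 TPM late. The genotypes overlapped at both times, and the difference of -0.38 had a 95% interval of -0.94 to 0.18. Of 40 cell cycle genes 3 were called higher at 6 days and 4 at 6 months, where 3.17 and 15.9 percent of all genes were. The median effect of the cell cycle genes was 0.89 early and 0.14 late, and 38 had a negative time difference, none of them called, though 4 were called without 6-day control 2.

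Some effects were large at both times with no called difference between them. Ctsk, cathepsin K, stood at 31.4, 51.2 and 27.5 against 418, 403 and 880 TPM early and at 23.8, 18.3, 24.0 and 23.3 against 720, 604, 456 and 585 TPM late, with effects of 3.87 and 4.65. Gdf15, a stress-induced cytokine, stood at 1.46, 3.32 and 1.12 against 18.4, 27.2 and 21.4 TPM early and at 1.85, 1.78, 1.14 and 1.19 against 26.7, 29.4, 27.0 and 30.2 TPM late, and its difference of 0.54 had a 95% interval of -0.15 to 1.23. Clec4n, the lectin receptor dectin 2, had effects of 3.65 and 3.28, and Ear6, a ribonuclease of a family with close copies, of 3.44 and 5.00. Of the genes called lower at both times, Pon1, the paraoxonase of plasma lipoproteins, stood at 94.2, 80.0 and 98.2 against 18.97, 26.4 and 23.3 TPM early and at 87.8, 112, 105 and 107 against 43.6, 32.2, 31.3 and 32.3 TPM late. Cst8, a cystatin, had effects of -2.61 and -2.15, Colq, the collagen tail of acetylcholinesterase, -3.12 and -1.94, and Sln, a calcium pump regulator of atrial muscle, -2.28 and -1.53. Slc7a10, an amino acid transporter, had -1.63 and -1.67, and Asgr1, a lectin receptor, -1.57 and -1.79.

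Finally, the early effect in AT2 cells sorted at 6 days was read for the genes whose lung effect differed with time. Of the 330 with a more positive difference 210 reached a mean of 1 TPM in control AT2 cells (63.6 percent), and of the 49 with a more negative one 27 did (55.1 percent), against 83.05 percent of all 13873 genes. Of the 230 and 27 tested there, 37 and 3 were called higher in knockout AT2 cells and 7 and 0 lower. Over all genes 737 of 11652 were called higher there and 142 lower. Msln and Tnfrsf12a, raised in early lungs, had effects of 0.33 and 0.19 in sorted cells, neither called. Eln had a called effect of 1.64 there and Gpnmb one of 1.06. Both were low in control AT2 cells, with means of 1.08 TPM for Eln and 0.73 TPM for Gpnmb, near the filter of 1 TPM. Which cells of the sort held these transcripts was not tested.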

How the data were processed

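RNA of whole lungs was sequenced as poly(A) libraries that do not keep strand, per the labels' protocols, so a gene and an overlapping or antisense gene cannot be told apart. The authors deposited TPM values, 1 table per experiment, on the build GRCm38 per the submitters' processing notes. The aligner, the quantifier and its handling of reads that fit several genes were not given in the sources used here, and the tables had 24972 rows, of which 4 were left out because 2 rows shared a symbol.

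Within each lung table, genes with at least 1 TPM in as many libraries as the smaller group entered a fit of log2(TPM + 1) with a variance trend (limma 3.58.1, R 4.3.3). The time difference was the 6-month effect minus the 6-day effect, with the standard errors of both fits combined, Satterthwaite degrees of freedom, a two-sided test and Benjamini-Hochberg adjustment over 13873 genes. The controls of the 2 tables were not compared with each other. Sorted AT2 cells, 6 libraries, were fitted alike and used only as a further readout, and organoid libraries were not used here. The procedure was tested on simulated data with 200 of 13873 genes altered. At a log2 change of 1 it recovered 51.5 percent with 7 false among 110 calls, and at 2 it recovered 93 percent with 18 false among 204. The simulated noise was independent between genes, with no early effect, no library standing apart and no shift in scale. These rates need not hold for the lungs.

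The members, gene lists and tests were chosen with earlier results of these data known. Genes were named by rule: the 8 largest called time differences of each sign among genes that reached a mean of 5 TPM in a lung group and whose genotypes did not overlap in at least 1 table, up to 8 genes called in opposite directions, 6 called higher and 6 called lower at both times, up to 4 members of each list by adjusted p and up to 2 called at both times, and 10 genes throughout. Sequences are RefSeq's (GRCm38.p6) and 3′ UTRs are those of GENCODE M21. Alternatives were other scalings, filters, pseudocount, spread, library weights, a replicate block and leaving out each library, and 1 was added after seeing the data, median-ratio scaling without 6-day control 2.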

Additional observations from a re-analysis of the deposited data

Results flagged for a closer look

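The time difference was itself a difference between groups under 1 contrast, and it passed its test for 330 genes with a more positive and 49 with a more negative value. Of all genes tested, 11 were called in opposite directions. Their time differences were 2.05 for Fbxo32, 1.53 for Vnn3, 1.28 for Fgfr2, 1.25 for Etv5, 1.24 for Tmem163, 0.98 for Gstm1, 0.90 for Cited2 and 0.81 for Cat, and -1.57 for Wfdc3, -1.75 for Msln and -1.91 for Tnfrsf12a.

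Single late lungs stood apart from the other 3 of their group in 12 of 198 groups of 4 examined by Dixon's criterion, which chance passes in about 1 of 20 groups. Among 6-month controls the low values were 7.865 TPM for Asgr1, 18.28 TPM for Ctsk and 15.99 TPM for Sfn. The high values among these controls were 15.01 TPM for Cd4, 813.3 TPM for Chil1, 24.25 TPM for Cst8 and 109.7 TPM for Eln. Among 6-month knockouts the high values were 3342 TPM for Chil1, 43.1 TPM for Myh6, 3.247 TPM for Myl3, 40.67 TPM for Orm1 and 43.56 TPM for Pon1. The early groups hold 3 mice each and were not examined this way.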

How the results depend on the processing

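The numbers of genes called at 6 months stayed within 1.5 times of 2259 and 1966 under every alternative, while those that use the early table did not. For more positive differences, 330 genes, the values outside that range were 2438 with library weights (whose estimation for the early table stopped short of convergence), 524 with a shared spread and 196 with median-ratio scaling without 6-day control 2, and 97 to 601 with 1 library left out. For more negative ones, 49 genes, they were 1554 with library weights, 27 with a filter at 5 TPM, 138 with median-ratio scaling, 129 with that scaling without 6-day control 2, 175 with quantile normalization and 86 with a shared spread, and 10 to 288 with 1 library left out. Genes higher at 6 days numbered 3858 with library weights, 950 with median-ratio scaling, 726 with that scaling without control 2, 911 with quantile normalization and 41 to 1030 with 1 library left out. Genes lower at 6 days numbered 323 with a filter at 5 TPM, 4537 with weights, 850 with median-ratio scaling, 969 with quantile normalization and 51 to 1017 with 1 library left out. Genes called the same way at both times numbered 2885, 1199 and 1267 with weights, median-ratio scaling and quantile normalization and 76 to 1281 with 1 library left out, and those called in opposite ways 250, 26, 30 and 1 to 35. The lowest values came without 6-day control 1 and the highest without 6-day knockout 3. The cause was not tested.

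No called difference among the 79 named called genes turned its sign, a weak test because the genes were chosen from these same libraries. Of these, 34 stayed called in every fit with 1 library left out and 26 under every alternative, and the most calls lost to 1 library were 43, without 6-day control 1. Of the differences that were not called, that of Asgr1 turned to 0.13 with a pseudocount of 0.1 and that of Scgb1a1 to -0.027 with median-ratio scaling. With 1 library left out Col1a1 ranged from -0.95 to 0.25 and Slc7a10 from -0.32 to 0.10. Same-numbered deviations correlated at -0.154, 0.00525 and -0.138 at 6 days, so replicate numbers did not pair those samples. At 6 months they correlated at 0.0803, 0.11, 0.217 and 0.0928, and each library matched its own number best. What same-numbered late lungs share was not tested, and the main fits held no replicate block. With the replicate number as a block, 231 and 50 differences were called, and 350 genes were lower at 6 days. Depth is unknown, and at 6 days 3 mice per genotype and a wider spread between libraries limit what can be resolved.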
